A study of Homo sapiens with 6 samples.

Results

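The LDL receptor family is described here through 9 genes, VLDLR, LRP1, LRP2, LRP4, LRP5, LRP6, LRP8, LRP10 and LRP11, among 19775 genes on the array. They were read with 20 probe sets, groups of short probes for 1 gene, out of 41091 that the platform annotation ties to exactly 1 gene symbol. The probe sets were selected by gene symbol. The family itself was picked from earlier results on the same arrays, in which VLDLR differed between the groups, so the differences of the 9 genes are a description and carry no p-value. RNA came from DLD-1, an established human colon adenocarcinoma line, as 2 untreated subclones labelled DLD-1Δα-Cat (n = 3 arrays) and DLD-1α-Cat (n = 3 arrays). All 6 arrays are labelled as cells kept for 96 h in a three-dimensional gel of type I collagen at 1 mg/ml. Nothing in the labels ties the 3 arrays of a group to separate cultures, so the spread between them may be technical. Any other difference between the subclones cannot be told apart from the one their names give. The values are log2 intensities, every difference is DLD-1Δα-Cat minus DLD-1α-Cat, and a gene is called where limma's Benjamini-Hochberg adjusted p over all genes was under 0.05.

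The labels were checked on CTNNA1, the gene of αE-catenin, which stood between 11.01 and 11.38 in DLD-1Δα-Cat and was higher, between 12.73 and 12.79, in DLD-1α-Cat. What the Δ in the name stands for is not spelled out in the labels. All 9 colon epithelial markers lay above 6.13, the median of all probe sets, and 1 of them differed, KRT20, a keratin of differentiated colonocytes, whose mean was 13.02 in DLD-1Δα-Cat against 8.13 in the other subclone (limma, adjusted p = 1.49e-05). Its part in the results was not tested. Above that median lay none of the 5 endothelial and 4 measured leukocyte markers and 2 of 7 fibroblast markers, and limma called 0 of these 16 markers (3 at an unadjusted p under 0.05). Of 5 neuronal markers MAP2 and RBFOX3 lay above it, and MAP2 was higher in DLD-1Δα-Cat by 0.62 (limma, adjusted p = 0.024). The log2 intensity of the 3' control minus that of the 5' control is a sign of RNA integrity. For β-actin it was 5.07 to 5.38 in DLD-1Δα-Cat and 4.36 to 4.89 in DLD-1α-Cat, so it moved with the groups. For GAPDH it was 0.69 to 0.82 and 0.51 to 0.79, so the groups overlapped. On all 6 arrays the 3' control was thus the brighter one, for β-actin by at least 4.36 log2 units. What this means for probe sets of 1 gene that disagree was not tested. The values with the β-actin ratio as a covariate stand beside the calls that it ended. As this ratio split the subclones without overlap, that fit can hardly separate it from the subclone. It called 84 genes in all, against 1091 without the ratio. A call lost there is not assigned to RNA integrity, whose part was not tested. Replicate 1 of DLD-1α-Cat stood apart from the other arrays, with the lowest weight of the 6 (0.431).

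Receptors of this family are single-pass membrane proteins whose outer part carries cysteine-rich ligand-binding repeats and, in many but not all of them, propeller domains. Some take up lipoproteins, proteases bound to their inhibitors, or carrier proteins into endosomes. VLDLR and LRP8 also receive the secreted protein reelin and pass its signal to the adaptor DAB1, whereas LRP5 and LRP6 act beside Frizzled receptors as co-receptors of Wnt, the pathway that sustains the intestinal stem cell. A chaperone, RAP (gene LRPAP1), escorts several of them through the endoplasmic reticulum.

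VLDLR was higher and LRP2 was higher in DLD-1Δα-Cat, LRP4 lay lower without being called, and the other 6 genes differed by less than 0.5 at their brightest probe set. Of the 9 members 2 were called, both higher, where 5.52% of all genes were called and 3.84% were called higher. For 3 members, VLDLR, LRP2 and LRP4, every array of one subclone lay above every array of the other, as for 27.2% of all genes. Since the contrast was known when the family was picked, nothing is read from these counts. The median difference of the members was 0.156, with 6 of 9 above 0, and that of all genes was -0.03.

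**Figure D1:**
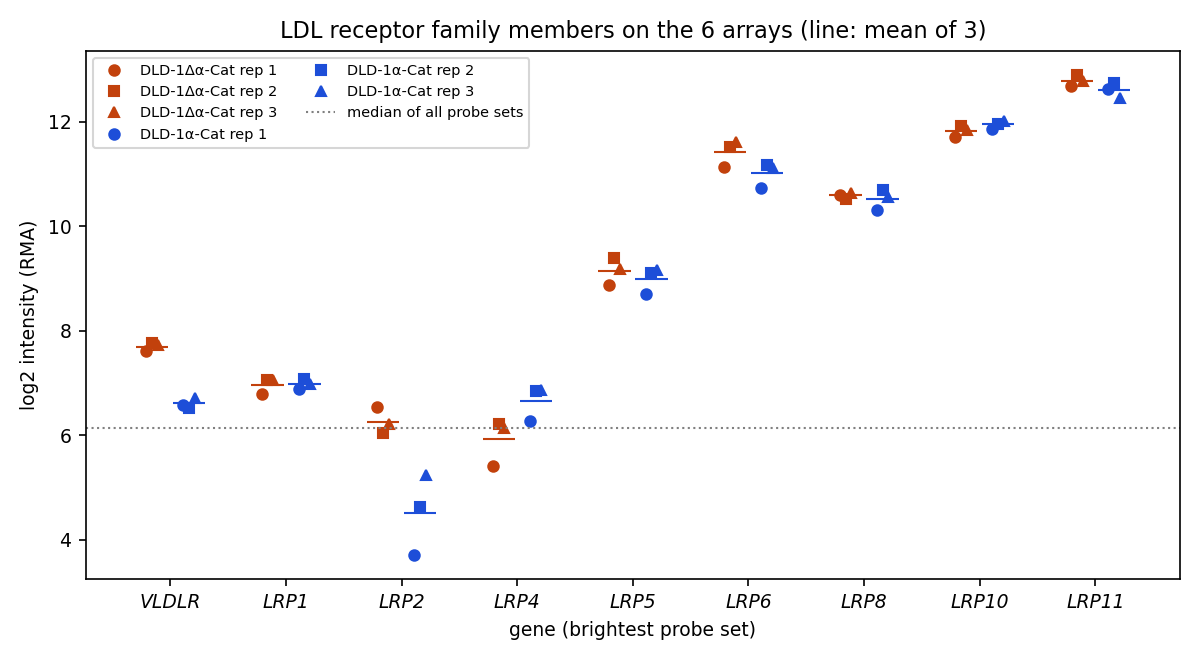
Log2 intensity (y axis) of the brightest probe set of each of the 9 genes (x axis) on the 3 DLD-1Δα-Cat arrays (orange) and the 3 DLD-1α-Cat arrays (blue). Short lines are group means and the dotted line is the median of all probe sets, 6.13. VLDLR and LRP2 stand higher in DLD-1Δα-Cat with no overlap, and LRP4 stands lower.

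VLDLR, the very low density lipoprotein receptor, takes up triglyceride-rich lipoproteins and receives reelin. Its 1 probe set read 7.61, 7.76 and 7.72 in replicates 1, 2 and 3 of DLD-1Δα-Cat. It read 6.57, 6.53 and 6.72 in those of DLD-1α-Cat. The groups did not overlap, and the gap between the lowest DLD-1Δα-Cat and the highest DLD-1α-Cat array was wider than the whole range within either group. The means were 7.69 ± 0.0771 and 6.61 ± 0.104 (SD, n = 3 each), a difference of 1.09 (SE 0.101) or 2.13-fold. The call held in 6 of 6 runs that left out 1 array, with differences from 1.05 to 1.15. With the β-actin ratio as a covariate the difference was 1.20 and was not called. A larger absolute difference was seen in 2.43% of all genes, and VLDLR ranked 396 from the highest. Over all genes the differences ran from -5.52 to 6.96. More VLDLR RNA in each cell and more cells that make it cannot be told apart in such bulk RNA.

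LRP2, or megalin, is a large endocytic receptor of absorptive epithelia, best known from the kidney tubule, where it recovers carrier proteins such as retinol-binding protein. Its brighter probe set read 6.54, 6.04 and 6.21 in DLD-1Δα-Cat. In DLD-1α-Cat it read 3.71, 4.62 and 5.23, a wide spread with replicate 1 lowest. The difference was 1.74 (SE 0.353), from 4.52 ± 0.766 to 6.26 ± 0.252 (SD, n = 3 each), or 3.35-fold on the scale of the array. All 3 DLD-1α-Cat arrays and replicate 2 of DLD-1Δα-Cat lay below the median of all probe sets, so the fold depends on the array's floor. Averaged over both probe sets the difference was 1.15, and it was called. The dimmer probe set read 5.73, 5.22 and 4.67 against 4.35, 4.88 and 4.74. Its groups overlapped and its difference of 0.55 (SE 0.267) was not called.

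The call of LRP2 depended on single arrays. It was lost without replicate 1 (1.61), 2 (1.86) or 3 (1.77) of DLD-1Δα-Cat, and also when replicate 2 of DLD-1α-Cat was dropped (1.79). It was kept when replicate 1 (1.34) or 3 (2.10) of that subclone was dropped. With the replicate number as a block the difference of 1.74 was not called, and with the β-actin ratio as a covariate it was 2.61 and not called.

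The genes next to both called receptors were read as well, a choice made after the values had been seen. Of the 10 nearest tested genes around VLDLR, 5 on each side, limma called 0 (3 at an unadjusted p under 0.05), and their differences ran from -0.59 (GLIS3) to 0.47 (RFX3). SMARCA2, a chromatin remodelling ATPase directly next to VLDLR, differed by -0.03, and KCNV2, on the other side, by -0.15. Around LRP2 the 2 genes that follow it were called, both higher, and the other 8 were not. Over all genes 3.84% were called higher. The differences around LRP2 ran from -0.73 (SPC25) to 2.30 (BBS5). SPC25 was lower on every DLD-1Δα-Cat array without overlap, though not called (limma adjusted p = 0.0691). BBS5, a subunit of the BBSome that moves cargo to cilia, read 6.78, 6.11 and 6.91 in DLD-1Δα-Cat against 4.91, 3.71 and 4.29, a difference of 2.30 (SE 0.326, limma adjusted p = 0.0097). KLHL41, a Kelch-like gene known from muscle, read 5.6, 4.71 and 5.35 against 2.87, 3.16 and 3.20, a difference of 2.14 (SE 0.226, limma adjusted p = 0.00301). Both lay below the median of all probe sets in DLD-1α-Cat, as LRP2 did, so 3 genes in a row were higher in the same arrays. In DLD-1Δα-Cat KLHL41 lay below that median on every array, and BBS5 (6.11) and LRP2 (6.04) did so in replicate 2. The next genes beyond KLHL41, FASTKD1 and PPIG, differed by -0.05 and 0.11, and DHRS9, on the other side of LRP2, by -0.08. A further probe set of KLHL41 differed by 0.34 and was not called, and the average over both was 1.24. BBS5 was not called without replicate 3 of DLD-1α-Cat (2.29, limma adjusted p = 0.0557), and neither gene was called with the β-actin ratio as a covariate (2.70 for BBS5 and 2.56 for KLHL41) or without moderation.

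**Figure D2:**
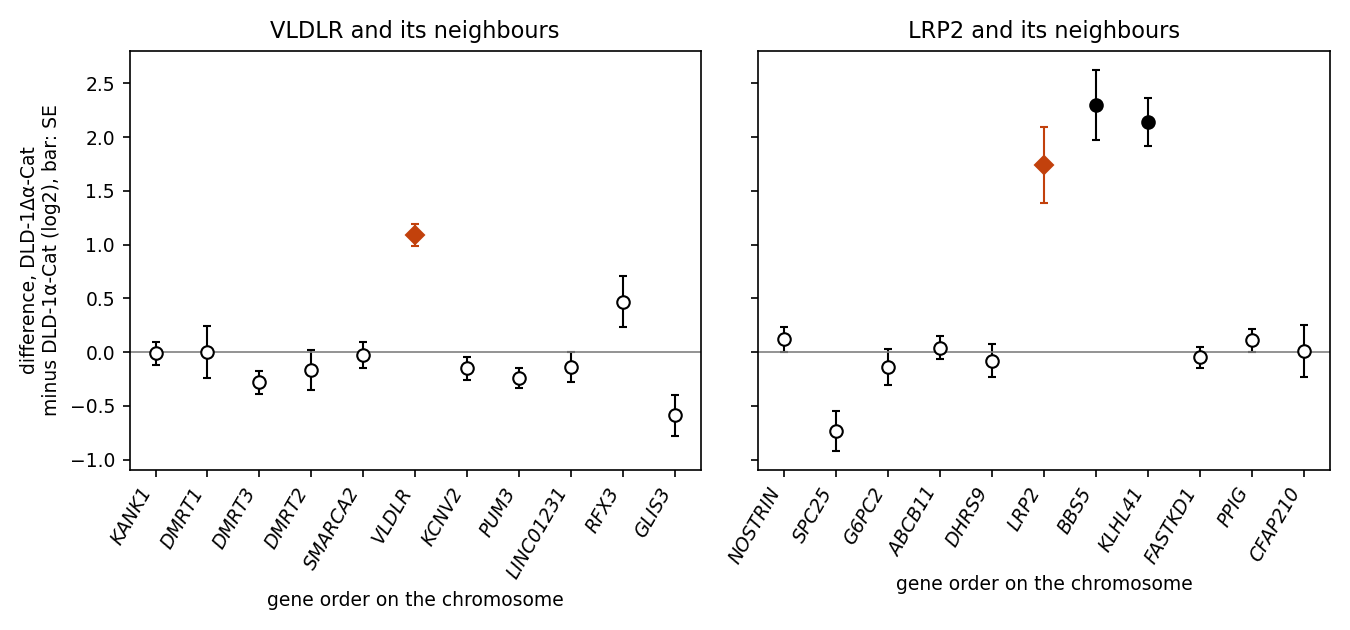
Difference between the subclones (log2, y axis) with its SE for VLDLR and LRP2 (orange diamonds) and the 5 tested genes on each side in chromosome order (x axis, distances not drawn). Filled symbols are called genes. VLDLR stands alone among its neighbours, whereas BBS5 (2.30) and KLHL41 (2.14) stand with LRP2 (1.74).

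The promoter windows of the 2 called receptors are shown because they are the members whose RNA differed most. RefSeq windows on assembly GRCh38.p14, from 250 bases before to 50 bases after the gene start, were found for 7 of the 9 members. The VLDLR window is chr9:2621537-2621836 on the plus strand and the LRP2 window is chr2:169362485-169362784 on the minus strand. Both are written 5′ to 3′ along the gene, with each match to the GC box GGGCGG on either strand in capitals.
VLDLR: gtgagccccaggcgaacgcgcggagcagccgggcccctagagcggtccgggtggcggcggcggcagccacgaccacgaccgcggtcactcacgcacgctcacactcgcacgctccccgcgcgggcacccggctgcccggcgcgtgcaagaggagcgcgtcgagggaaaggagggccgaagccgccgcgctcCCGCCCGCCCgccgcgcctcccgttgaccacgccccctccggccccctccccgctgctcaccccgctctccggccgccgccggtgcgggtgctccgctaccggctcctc
LRP2: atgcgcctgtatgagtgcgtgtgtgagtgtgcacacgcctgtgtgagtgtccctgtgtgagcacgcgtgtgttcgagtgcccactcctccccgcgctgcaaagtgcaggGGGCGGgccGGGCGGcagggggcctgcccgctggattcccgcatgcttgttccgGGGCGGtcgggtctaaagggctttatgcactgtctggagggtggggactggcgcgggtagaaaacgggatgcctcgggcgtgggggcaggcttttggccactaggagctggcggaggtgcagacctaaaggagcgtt
The VLDLR window had 79% G and C and 49 CpG dinucleotides, with 2 overlapping GC boxes. The LRP2 window had 65.3% and 23, with 3 separate GC boxes. All 7 member windows held GGGCGG, against 45% of the 35116 windows of all genes, and their G and C content ran from 56.3% to 86.7% with a median of 72.3%, against a median of 58.7%. The core of the hypoxia response element, ACGTG, was found in 1 of 7 (LRP10) against 21.4% of all windows, CCAAT in 1 of 7 (LRP10) against 34.6%, and TATAAA in 0 of 7 against 11.5%. A match describes these letters only and shows no binding.

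LRP8, also called ApoER2, is the second reelin receptor and the closest relative of VLDLR among the members. Its 3 probe sets disagreed. The brightest read 10.60, 10.53 and 10.64 in DLD-1Δα-Cat and 10.31, 10.69 and 10.56 in DLD-1α-Cat, which left 0.07 (SE 0.120) between the means. A nearly as bright one read 10.30, 10.02 and 10.12 against 10.66, 10.36 and 10.87. Its groups did not overlap, the DLD-1Δα-Cat arrays being the lower ones, and its difference of -0.48 (SE 0.155) was not called. The third lay at -0.25 (SE 0.170). Averaged over the 3 probe sets LRP8 stood at -0.22, opposite in sign to its brightest probe set, so no direction is given for this gene.

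LRP1 is a broad scavenger that clears α2-macroglobulin, protease-inhibitor complexes and remnant lipoproteins. Its brightest probe set read 6.78, 7.05 and 7.06 in DLD-1Δα-Cat and 6.88, 7.08 and 6.98 in DLD-1α-Cat, so the groups overlapped almost completely. The difference was -0.02 (SE 0.117), and the other 3 probe sets lay between -0.24 and -0.01. The sign of the brightest one turned without replicate 1 of DLD-1Δα-Cat (0.07) or replicate 2 of DLD-1α-Cat (0.03).

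LRP4 binds agrin at the neuromuscular synapse, where it activates the kinase MUSK, and also takes part in Wnt signalling. It read 5.41, 6.21 and 6.14 in DLD-1Δα-Cat and 6.27, 6.84 and 6.87 in DLD-1α-Cat. The groups did not overlap, by a narrow margin, and replicate 1 was the lowest array of each. The difference was -0.74 (SE 0.250), from 6.66 ± 0.335 to 5.92 ± 0.441 (SD, n = 3 each), and was not called. With the replicate number as a block the same difference of -0.74 was called, in a fit that called 7.39% of all genes.

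LRP6 and LRP5, the Wnt co-receptors, were not called. The brightest LRP6 probe set read 11.14, 11.51 and 11.61 in DLD-1Δα-Cat and 10.73, 11.17 and 11.12 in DLD-1α-Cat, so that the means were apart by 0.41 (SE 0.170). The lowest DLD-1Δα-Cat array lay under the highest DLD-1α-Cat array, so the groups overlapped. The other 2 probe sets lay at 0.27 and 0.24, and in all 3 the lowest of the 6 arrays was replicate 1 of DLD-1α-Cat. Without that array the LRP6 difference was 0.27. LRP5 read 8.87, 9.39 and 9.18 against 8.71, 9.11 and 9.16, a difference of 0.16 (SE 0.174), and its dimmer probe set lay at -0.04.

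LRP10 and LRP11 are less studied members. LRP10 shuttles between the trans-Golgi network and endosomes. It read 11.71, 11.92 and 11.84 in DLD-1Δα-Cat and 11.87, 11.95 and 12.02 in DLD-1α-Cat (difference -0.12, SE 0.101), and its other 2 probe sets lay at 0.05 and 0.01. LRP11 read 12.69, 12.90 and 12.78 against 12.63, 12.74 and 12.45, a difference of 0.18 (SE 0.115). In both genes the groups overlapped and no call was made.

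Fitted over every probe set, 2 of the 20 were called, 1 of VLDLR and 1 of LRP2, where 3.38% of all 41091 probe sets were called. Of the 9 genes 3 rest on 1 probe set (VLDLR, LRP4 and LRP11), so no second reading was available for them. Replicate 1 of DLD-1α-Cat was the lowest of the 6 arrays for 8 of the 20 probe sets and replicate 2 of DLD-1Δα-Cat the highest for 7. The 8 include every LRP6 probe set. By gene, replicate 1 of DLD-1α-Cat was lowest for 4 of the 9 members and replicate 1 of DLD-1Δα-Cat for 3. The share over all probe sets was not computed, so nothing about the members is read from these counts.

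**Figure D3:**
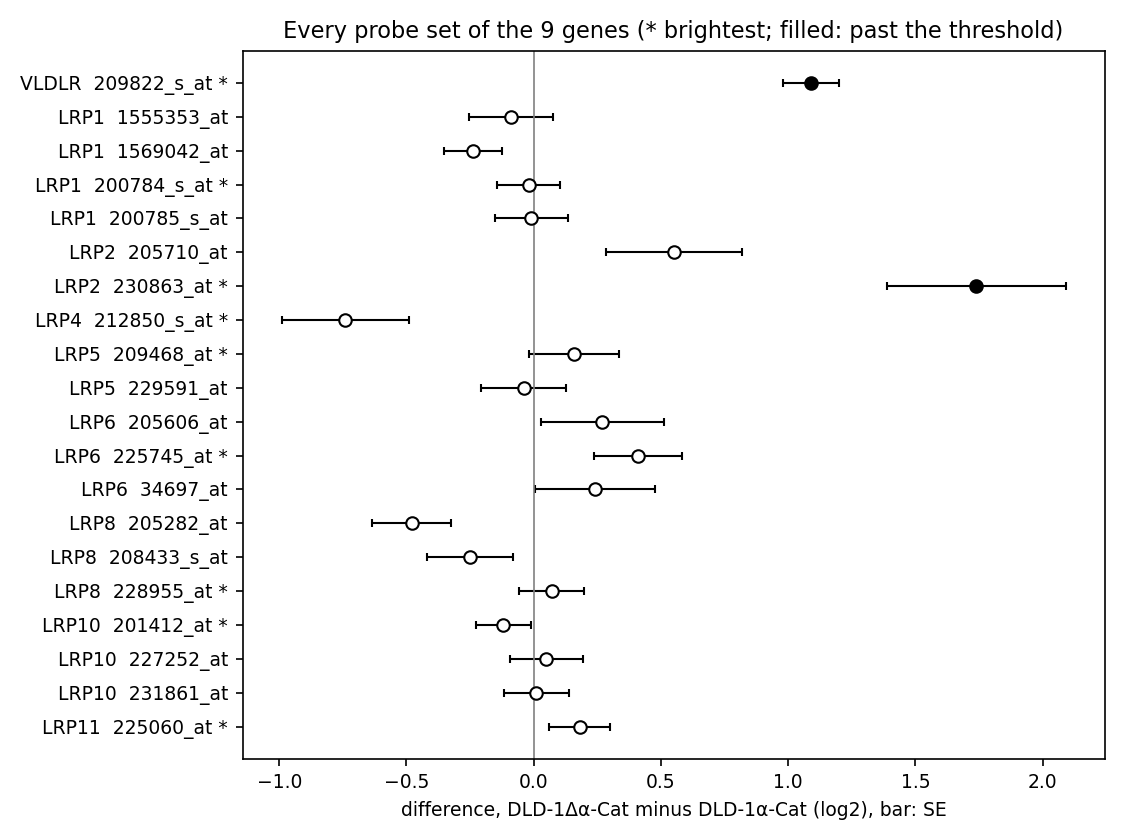
Difference between the subclones (log2, x axis) with its SE for each of the 20 probe sets (y axis), fitted over all probe sets. Filled circles are called and an asterisk marks the brightest probe set of a gene. The 2 LRP2 probe sets differ in size (1.74 and 0.55), and the 3 LRP8 probe sets lie on both sides of 0.

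Among other genes the profiles closest to that of VLDLR over the 6 arrays, after centring each gene on its mean, were those of RASIP1, COBLL1, TMEM176B and IGFBP6. Their root mean square distances from the VLDLR profile were 0.0492, 0.0604, 0.0673 and 0.0684 log2 units. RASIP1, a Ras-interacting protein known from endothelium, read 7.47, 7.64 and 7.61 against 6.49, 6.39 and 6.73, and the difference of IGFBP6, a secreted binder of insulin-like growth factors, was 1.10. Among the other members the nearest was LRP6, at 0.381, and the farthest LRP4, at 0.956.

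Genes that work around the receptors were read in 7 lists, and 138 of their 158 symbols were measured. In all 6 were called higher and 4 lower, where 5.52% of all genes were called, and the median difference was 0.017. The lists were chosen with earlier results of these arrays known.

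**Figure D4:**
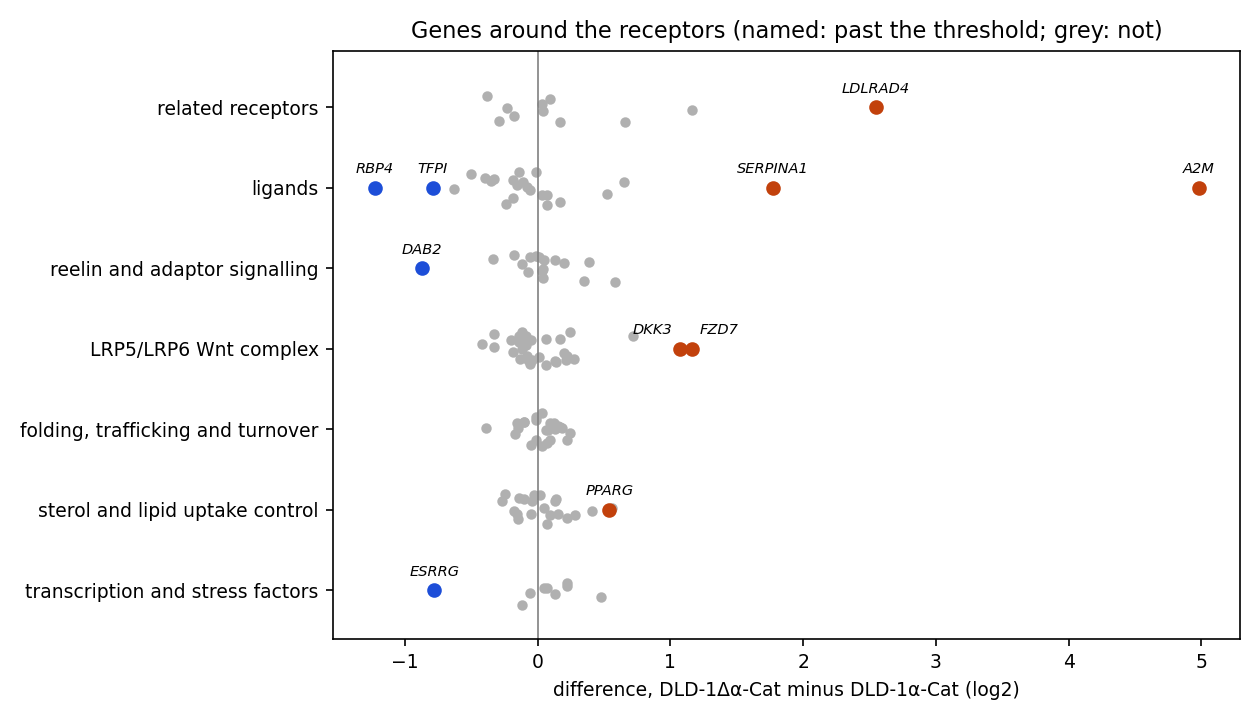
Difference between the subclones (log2, x axis) of every measured gene of the 7 lists (y axis, 1 row per list; grey points are spread vertically at random). Coloured and named points are called genes, orange higher and blue lower in DLD-1Δα-Cat. A2M, at 4.98, lies far from all others, and the list of folding, trafficking and turnover holds no called gene.

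Ligands went both ways. Of 24 measured, 2 were higher and 2 lower, with a median of -0.122. A2M, the protease trap α2-macroglobulin and a classical ligand of LRP1, read 9.19, 9.60 and 9.78 in DLD-1Δα-Cat and 4.62, 4.73 and 4.28 in DLD-1α-Cat. The difference was 4.98 (SE 0.183, limma adjusted p = 2.47e-05), from a level below the median of all probe sets, and its other probe set lay at -0.20 and was not called. Averaged over both, A2M differed by 2.39 and was called, and with the β-actin ratio as a covariate it was called at 4.68. SERPINA1, the elastase inhibitor α1-antitrypsin, read 11.89, 12.57 and 11.82 against 10.32, 10.56 and 10.09 (difference 1.77, limma adjusted p = 0.00571), and 3 of its 4 probe sets were called. Averaged over the 4 it differed by 1.16, still called, and with the β-actin ratio by 1.17, not called (adjusted p = 0.232). TFPI, an inhibitor of the start of coagulation that LRP1 clears, fell from 9.28, 9.25 and 9.24 to 8.43, 8.63 and 8.33 (-0.79, limma adjusted p = 0.00808), and 4 of its 5 probe sets were called. With the β-actin ratio it was not called (-0.93, adjusted p = 0.156). RBP4, the retinol carrier that LRP2 takes up, read 5.80, 5.93 and 6.73 against 7.28, 7.10 and 7.77 (-1.23, limma adjusted p = 0.0471). When every probe set was tested, its other probe set was called (-1.17, limma adjusted p = 0.0249) and this one was not (limma adjusted p = 0.0581). Averaged over its probe sets RBP4 differed by -1.20 and was called (limma adjusted p = 0.0183). Without any 1 of replicates 1 and 2 of DLD-1Δα-Cat or of the 3 DLD-1α-Cat arrays RBP4 was not called (adjusted p from 0.0519 to 0.157). With the β-actin ratio as a covariate its difference shrank to -0.53 and was not called (adjusted p = 0.762).

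Lipoprotein and reelin ligands did not pass. The listed ligands CLU (-0.35, limma adjusted p = 0.0629) and MDK (-0.63, limma adjusted p = 0.054) were not called either. Both were called lower with averaged probe sets (limma adjusted p = 0.0343 and 0.0397) and with array weights (limma adjusted p = 0.0387 and 0.0241). Without dim probe sets both were called lower as well (limma adjusted p = 0.0286 and 0.0345). Apolipoprotein E (APOE) differed by -0.08 (limma adjusted p = 0.837), apolipoprotein B (APOB) by -0.06 (limma adjusted p = 0.819) and lipoprotein lipase (LPL) by -0.01 (limma adjusted p = 0.96). Reelin itself (RELN) lay below the median of all probe sets on all 6 arrays, between 4.27 and 4.8, and differed by 0.03 (limma adjusted p = 0.936). The reelin adaptor DAB1 differed by -0.12 (limma adjusted p = 0.579). In the list of reelin and adaptor signalling 0 of 17 genes were higher and 1 lower. This was DAB2, a clathrin adaptor that binds the tails of LRP2 and other members, which fell from 8.33, 8.29 and 8.66 to 7.67, 7.51 and 7.47 (-0.87, SE 0.130, limma adjusted p = 0.0117). Of its 7 probe sets 4 were called, all lower. DAB2 was not called without replicate 2 (adjusted p = 0.0541) or 3 (adjusted p = 0.0527) of DLD-1Δα-Cat, nor with the β-actin ratio (-0.59, adjusted p = 0.409). With the replicate number as a block the postsynaptic scaffold gene DLG4 was called too (0.58, limma adjusted p = 0.0391).

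Around the Wnt co-receptors 2 of 31 genes were higher and 0 lower, with a median of -0.053. The receptor FZD7 read 11.36, 11.76 and 11.88 in DLD-1Δα-Cat and 10.44, 10.68 and 10.40 in DLD-1α-Cat (1.16, SE 0.157, limma adjusted p = 0.008), and both of its probe sets were called. With the β-actin ratio it was not called (1.01, adjusted p = 0.319). DKK3, a Dickkopf relative that unlike DKK1 is not known as an inhibitor of LRP6, read 8.62, 8.35 and 8.47 against 7.37, 7.46 and 7.39 (1.07, SE 0.104, limma adjusted p = 0.00202), and 2 of its 6 probe sets were called. Averaged over these 6 it differed by 0.44 and was not called, and with the β-actin ratio it differed by 1.11 and was not called (adjusted p = 0.104). The LRP6 inhibitors and receptor-clearing enzymes did not pass: DKK1 differed by -0.20 (limma adjusted p = 0.356), the Dickkopf receptor KREMEN1 by -0.13 (limma adjusted p = 0.526) and the ubiquitin ligase ZNRF3 by -0.09 (limma adjusted p = 0.739). With the replicate number as a block FZD3 (0.72, limma adjusted p = 0.0195) and the ubiquitin ligase RNF43 (-0.42, limma adjusted p = 0.0466) were called as well, or 3 higher and 1 lower.

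Among 11 related receptors 1 was higher. LDLRAD4, which carries an LDL receptor class A domain and restrains TGF-β signalling, read 6.05, 7.07 and 6.88 in DLD-1Δα-Cat and 4.36, 4.09 and 3.88 in DLD-1α-Cat (2.55, SE 0.266, limma adjusted p = 0.00285). Of its 4 probe sets 2 were called, and the other 2 lay at -0.09 and -0.27. Averaged over the 4 LDLRAD4 differed by 1.20, still called, and with the β-actin ratio by 2.14, not called (adjusted p = 0.19). The sorting receptor SORL1 read 10.91, 11.73 and 11.72 against 9.92, 10.69 and 10.27. Its groups did not overlap, but the difference of 1.16 (SE 0.271) was not called (limma adjusted p = 0.0549). With the replicate number as a block it was (limma adjusted p = 0.0148). It was called as well without dim probe sets (limma adjusted p = 0.0399) and with array weights (limma adjusted p = 0.0258). LRP3 and LRP12, which are grouped with LRP10, differed by -0.18 and -0.38, not called, although LRP12 averaged over its probe sets was called (-0.44, limma adjusted p = 0.0244). LRP1B, a relative of LRP1, was near the bottom of the scale, between 2.41 and 2.78. CUBN, the partner of megalin, differed by 0.04 (limma adjusted p = 0.877).

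In the machinery that folds, sorts and cleaves the receptors no gene passed the test. Of 24 genes 0 were called by limma, and 0 had an unadjusted p under 0.05, and the differences lay between -0.39 (the membrane protease MMP14) and 0.24. The chaperone genes LRPAP1 (RAP) and MESD, which folds LRP5 and LRP6, differed by -0.01 (SE 0.112) and 0.03 (SE 0.0891). APH1B, a γ-secretase subunit, had the largest difference of those above the median of tested genes, 0.24 (limma adjusted p = 0.263). MYLIP, the ubiquitin ligase that sends VLDLR and LRP8 to degradation, differed by 0.22 (limma adjusted p = 0.259).

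Of 22 genes of sterol and lipid uptake control 1 was higher, PPARG, a nuclear receptor of lipid metabolism. It read 10.26, 10.26 and 10.41 against 9.67, 9.71 and 9.95 (0.54, SE 0.112, limma adjusted p = 0.0387). PPARG was not called in any of the 6 runs that left out 1 array (adjusted p from 0.0515 to 0.139) or when every probe set was tested (adjusted p = 0.0572), nor with the β-actin ratio (0.78, adjusted p = 0.177). The cholesterol exporter gene ABCG1 differed by 0.56 with no overlap and was not called (limma adjusted p = 0.0796), but its average over probe sets was (0.99, limma adjusted p = 0.0137). With array weights ABCG1 was called too (0.62, limma adjusted p = 0.0445). In this list the groups did not overlap for 6 of the 22 genes, as for 27.2% of all genes. The sterol-responsive factor SREBF2 and the cholesterol synthesis gene HMGCS1 were lowest on the DLD-1Δα-Cat arrays without overlap (differences -0.16 and -0.18) and were not called. HMGCS1 averaged over its probe sets was (-0.54, limma adjusted p = 0.029). Also without overlap, MBTPS1 was higher (0.28) and NPC2 lower (-0.10), neither called. In a list of 9 transcription and stress factors 1 was lower, the orphan nuclear receptor ESRRG (-0.78, SE 0.145, limma adjusted p = 0.0261), whose arrays read 5.23, 5.39 and 5.02 against 6.04, 6.17 and 5.77. Without any 1 of the 3 DLD-1Δα-Cat arrays or of replicates 1 and 2 of DLD-1α-Cat ESRRG was not called (adjusted p from 0.0523 to 0.0913). Its other probe set lay at -0.47, not called. It was not called either when both were averaged (-0.63, adjusted p = 0.122) or with the β-actin ratio (-1.18, adjusted p = 0.0686). HIF1A differed by 0.07 and ATF4 by 0.05, neither called. With the β-actin ratio as a covariate 1 of the 138 genes, A2M, was called.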

How the data were processed

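The deposited table holds log2 values made by the authors with RMA (Expression Console from Affymetrix), as the submitters' processing notes say, with no version stated there. RMA subtracts background, equalises the distributions of the arrays and summarises probes, so a rise or fall common to most genes is hidden, and no detection calls were used. Array medians lay between 6.12 and 6.15.

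Symbols came from the 2016 platform annotation. They were compared by gene ID with RefSeq (41037 of 41091 probe sets matched), which changed 0 symbols. Each gene was represented by its brightest probe set and tested by lmFit and eBayes (limma 3.58.1, R 4.3.3; two-sided, Benjamini-Hochberg over 19775 genes); a fit over every probe set was run beside it. The scripts were tested on simulated data. The members and lists were chosen with earlier results of these data known. Named were the members, up to 3 called genes per list and direction, or where none was called the most different gene above the median of tested genes, and the 4 profiles nearest to VLDLR; other genes were named after their values had been seen. Some list members have no value here and were not analysed.

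For the block alone, replicate numbers were taken to pair the arrays. This pairing was read from the same data, is not stated in the labels and was not used in the main fit. After subtracting group means, arrays with the same number correlated at 0.225, 0.376 and 0.122. Those with different numbers lay between -0.317 and 0.0666, so the value of 0.122 for replicate 3 was little above them. The alternatives were the replicate number as a block, quantile normalization, a filter on dim probe sets, averaged probe sets, every probe set, trend and robust eBayes, no moderation, array weights, the β-actin ratio as a covariate and leaving out each array.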

Additional observations from a re-analysis of the deposited data

How the results depend on the processing

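VLDLR kept its direction in all 15 alternatives and its call in all but the fit with the β-actin ratio as a covariate (1.20). In that fit 0 members and 0 of their probe sets were called, 84 genes in all, and 1 higher and 0 lower list genes. The count of 2 members higher became 1 with the replicate number as a block, without dim probe sets and without moderation, as did the count of probe sets, and it lay between 1 and 2 over the runs that left out 1 array, for members and for probe sets. With the block 1 member and 1 probe set, both LRP4, were called lower, and LRP2 was not called; over all genes the calls went from 1091 to 1461. Among the list genes SORL1, DLG4, FZD3 and RNF43 were gained, and no other call of a member or list gene changed. Without moderation 115 genes were called in all, and 2 higher (A2M, DKK3) and 1 lower (CLU, gained) list genes, the other 8 calls being lost, as were LRP2, BBS5 and KLHL41. With trend and robust eBayes 1714 genes were called. Array weights gained the calls of SORL1, ABCG1, CLU, MDK and PLAU (-0.51, limma adjusted p = 0.0474). The filter on dim probe sets gained SORL1, CLU, MDK and PIK3R1 (0.39, limma adjusted p = 0.0488). Lower list genes numbered 7 with array weights and with the mean of probe sets, and 1 to 4 without single arrays; all called genes numbered 442 to 1202 there. Signs turned for uncalled members alone: LRP1 (0.07 and 0.03, each without 1 array), LRP8 (-0.22 with the mean of probe sets, -0.03 to 0.16 without single arrays) and LRP11 (-0.07 with the β-actin ratio). The cause was not tested. Values below about 6.13 lie in the dim part of the arrays, which limits the folds of LRP2, A2M, LDLRAD4, BBS5 and KLHL41. The filter on dim probe sets was set instead at the median of the probe sets with 1 gene symbol. It removed LRP2, LRP4, LDLRAD4, ESRRG, BBS5 and KLHL41, which were therefore not tested in that setting.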
